A study of Mus musculus with 6 samples.

Results

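The 10 integrin subunit genes examined in mouse hippocampus were Itgam, Itgb2, Itgal, Itgax, Itga4, Itga6, Itgav, Itgb1, Itgb5 and Itgb8. They were chosen by gene symbol, as named members of the integrin alpha and beta families, and all 10 of the 10 were present among the 15388 genes of the table. The RNA collected with tagged ribosomes, a step meant to enrich microglial RNA (Positive), was compared with the RNA of the cleared homogenate it was taken from (Input). Of 8 genes with over 20 scaled reads in every library of both fractions, 6 were higher in Positive, against 24% of all genes tested. Rises ran from 1.29-fold for Itgav, whose call was lost in some alternative fits, to 26.4-fold for Itgam. Itga4 and Itgb8 did not pass the test. Itgal and Itgax had over 20 scaled reads in every library of Positive alone.

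The mice were Cx3cr1-Cre/Ert2+; NuTRAP+, with 1 copy of each allele. Cre/ERT2 is a recombinase that acts in the nucleus only when tamoxifen is given, and here it was driven by Cx3cr1, a gene of microglia that is also active in macrophages at the borders of the brain and in blood monocytes. NuTRAP is a reporter that, once recombined, puts EGFP on a ribosomal protein. Translating ribosome affinity purification (TRAP) with an antibody against GFP is then meant to collect the RNA of the recombined cells. Males and females of the line, about 3 months old, received tamoxifen on 5 days and tissue was collected 3 to 4 weeks later, and the sex of these animals is not given in the sources used here. Animals 201, 207 and 208 each gave 1 Input and 1 Positive library, so both fractions carry the same alleles and treatment, and the 6 libraries compare RNA pools of the same hippocampi rather than different mice. No library of mice without Cre was analysed here, nor was the unbound fraction. The libraries held 14879734 to 17757918 reads, which carried no molecular identifiers, so counting limits cover counting error only.

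Integrins are receptors of the cell surface made of 1 alpha and 1 beta chain, and a chain without a partner is largely kept from the surface. Beta 2 chains are made by leukocytes and pair with alpha M (CD11b), alpha L (CD11a) or alpha X (CD11c), beta 1 has the widest choice of alpha partners, and alpha V pairs with several beta chains to bind proteins with an arginine-glycine-aspartate motif, including latent TGF-beta. In brain, alpha M with beta 2 is the complement receptor by which microglia are commonly recognised.

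The fraction was checked against cell type markers before the integrins were read. All 12 microglia markers were higher in Positive, with log2 fold changes of 3.12 to 4.84, a median of 4.63 and a summed level that went from 5259 to 5623 scaled reads in Input to 101900.0 to 150000.0 in Positive. Scaled reads are reads divided by a size factor that puts the libraries on a common scale, and in bulk RNA of this kind fewer cells of a type and less RNA per cell cannot be told apart. Markers of oligodendrocytes (10 of 10) and of their precursors (7 of 8) were lower, with medians of -2.58 and -1.06, and astrocyte markers had a median of -0.33 with 1 higher and 4 lower of 10. Among 11 neuron markers 2 were higher and the median was 0.08. The summed level of the neuron markers was 97350 to 110100 in Input and 104600 to 122800 in Positive. That of the astrocyte markers was 63230 to 67620 and 59760 to 71850. Positive was thus enriched in microglial RNA but also held RNA of markers of other cell types. Other lists rose beside the microglial one. Of 8 border macrophage markers, 4 had over 20 scaled reads in every library of both fractions, and these were higher. They were Mrc1 (4.19), Cd163 (4.01), Cbr2 (3.76) and F13a1 (4.48). The other 4 reached that level in Positive alone, which fixed the direction they could show. Over all 8 the median was 4.16, with a summed level of 204.9 to 276 in Input and 2854 to 6149 in Positive. All 10 endothelial markers were higher (median 1.88, summed level 1723 to 2089 and 4549 to 9181). Of all genes tested, 24% were higher and 22% lower. Mural markers had a median of -0.25, with 1 higher and 1 lower of 10.

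Promoters of members that moved far and of a member that did not pass the test are printed here, from RefSeq on GRCm38.p6, each running from 250 bases before the transcription start to 50 after it. The 6 bases GAGGAA, or TTCCTC on the other strand, are the core that the myeloid factor PU.1 is known to bind, and they are given in capitals. Itgam lies at chr7:128062390-128062689 on the plus strand, Itgax at chr7:128129300-128129599 on the plus strand, Itgb5 at chr16:33829415-33829714 on the plus strand and Itgb8 at chr12:119238227-119238526 on the minus strand.
Itgam: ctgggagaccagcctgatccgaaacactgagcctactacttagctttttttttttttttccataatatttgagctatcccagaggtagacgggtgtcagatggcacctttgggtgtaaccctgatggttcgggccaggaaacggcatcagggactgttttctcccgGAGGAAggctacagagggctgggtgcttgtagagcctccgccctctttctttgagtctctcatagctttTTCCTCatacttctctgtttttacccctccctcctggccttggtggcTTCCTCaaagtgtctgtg
Itgax: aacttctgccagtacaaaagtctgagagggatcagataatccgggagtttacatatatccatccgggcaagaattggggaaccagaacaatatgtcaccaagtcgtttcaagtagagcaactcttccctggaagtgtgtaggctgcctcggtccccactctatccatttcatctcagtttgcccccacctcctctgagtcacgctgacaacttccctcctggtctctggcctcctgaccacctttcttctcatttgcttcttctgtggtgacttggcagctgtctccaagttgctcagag
Itgb5: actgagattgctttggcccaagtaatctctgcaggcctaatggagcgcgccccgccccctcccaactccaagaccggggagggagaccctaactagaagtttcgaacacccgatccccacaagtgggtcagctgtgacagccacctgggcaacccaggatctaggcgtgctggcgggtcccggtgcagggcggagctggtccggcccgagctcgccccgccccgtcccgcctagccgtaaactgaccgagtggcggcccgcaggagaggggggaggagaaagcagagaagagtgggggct
Itgb8: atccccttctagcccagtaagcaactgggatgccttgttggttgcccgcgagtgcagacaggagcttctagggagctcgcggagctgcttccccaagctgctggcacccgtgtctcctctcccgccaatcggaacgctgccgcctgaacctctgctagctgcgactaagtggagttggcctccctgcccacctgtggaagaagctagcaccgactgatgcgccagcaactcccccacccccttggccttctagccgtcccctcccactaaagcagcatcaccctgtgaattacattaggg

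Of the 10 members, 7 had a promoter entry, and Itgb2, Itgal and Itga6 did not. GAGGAA or TTCCTC stood in the windows of Itgam, Itgav and Itgb1, against 28.3% of 32851 promoters of the same length. The Itgam window held 3 matches, at -84, -15 and 32 bases from the start, the Itgav window held 2, at -218 and -7, and the Itgb1 window held 1, at -9. The windows of Itgax, Itgb5, Itgb8 and Itga4 held none. A link between these matches and the fold changes was not tested. The box of the general factor Sp1, GGGCGG or CCGCCC, stood in 35.7% of all promoters and in those of Itgam, Itga4, Itgav, Itgb1 and Itgb5, with 3 matches in Itgb5, at -199, -63 and -34. G and C made up 65.7% of the Itgb5 window and 60.7% of the Itgb8 window, but 50.3% and 50.0% of those of Itgam and Itgax, against a median of 52.7% over all promoters. The RefSeq start of Itgb8 lies 526 bases inside the gene model of the table.

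A gene was tested where its scaled reads were over 20 in all libraries of at least 1 fraction. Itgal and Itgax passed this filter on low values through Positive alone, which fixed the direction they could show, so they are given as a description and left out of the counts here. By edgeR's quasi-likelihood test with Benjamini-Hochberg adjustment over 15344 genes, 6 of the 8 other members differed, against 46% of all genes tested. All 6 were higher in Positive (24% of all genes) and 0 were lower (22%). The shares of all genes here and below also cover genes that passed the filter through 1 fraction alone, unlike the 8 members. The count of lower members was also 0 at an unadjusted p under 0.05, with DESeq2 and with limma, and was 1, Itgb8, under total count scaling. Of these 8 genes, 4 were both called and over 5-fold higher (3.75% of all genes), and the libraries of the 2 fractions did not overlap for 7 (56.5% of all genes). The median log2 fold change was 2.01 over the 8 genes and -0.01 over all genes tested.

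**Figure D1:**
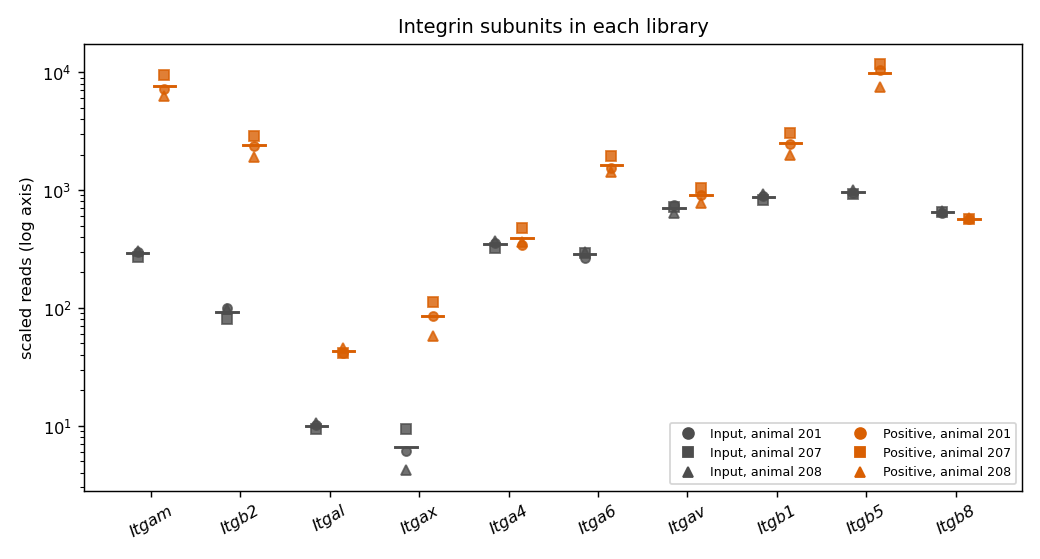
Scaled reads (log axis) of the 10 integrin genes in each of 3 Input libraries (grey) and 3 Positive libraries (orange), with a symbol for each animal and a bar at the mean of each fraction. Itgam, Itgb2, Itgax, Itga6, Itgb5, Itgb1 and Itgal stand well above Input in every animal, while the fractions overlap for Itga4 and lie close together for Itgav and Itgb8.

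Itgam encodes alpha M, the ligand-binding chain of complement receptor 3 (chromosome 7, 128062640 to 128128160, plus strand, mm10). It had 298, 272 and 303 scaled reads in the Input of animals 201, 207 and 208, and 7200.3, 9539 and 6261 in Positive. The lowest Positive library was thus far above the highest Input library. The means were 291 ± 16.5 and 7667 ± 1688 (SD, n = 3), and log2 Positive over Input was 4.72 ± 0.15 (SE, 95% interval 4.39 to 5.05, edgeR adjusted p = 2.08e-10). Among all genes tested, Itgam ranked 53 from the top. Its entry carries the identifier ENSMUSG00000108596, which the GENCODE vM21 annotation gives to Gm49368, a read-through locus on the same strand that overlaps Itgam, and whether the reads of both models were counted there is not given in the sources used here.

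Itgb2 encodes beta 2 (CD18), the partner of alpha M (chromosome 10, 77530252 to 77565708, plus strand). Its Input libraries held 99.97, 79.9 and 98.6 scaled reads, and its Positive libraries 2366, 2899 and 1914. Every Positive library again exceeded every Input library, and animal 207 had both the lowest Input and the highest Positive value. The mean went from 92.8 ± 11.2 to 2393 ± 493 scaled reads (SD, n = 3), which on the log2 scale was a rise of 4.69 ± 0.16 (SE, 95% interval 4.34 to 5.04, edgeR adjusted p = 2.98e-10). Itgam and Itgb2, which form 1 receptor, had nearly the same log2 fold change, and the interval of each held the median of the microglia markers, 4.63.

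The other alpha partners of beta 2 were rare. Itgal encodes alpha L, the chain of LFA-1 that lymphocytes use to bind ICAMs (chromosome 7, 127296260 to 127335138, plus strand). It had 10.2, 9.40 and 10.5 scaled reads in Input, from 10 raw reads in each library, and 41.2, 41.9 and 45.7 in Positive. The values did not overlap but were low in both fractions, and with so few reads their small spread is no measure of precision. The log2 fold change was 2.09 ± 0.29 (SE), with 10.03 ± 0.566 against 42.9 ± 2.43 scaled reads (SD, n = 3), and no test is given since the gene passed the filter on low values through Positive alone.

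Itgax encodes alpha X, used as a marker of dendritic cells and of activated microglia (chromosome 7, 128129547 to 128150657, plus strand). Its Input libraries held 6.12, 9.40 and 4.20 scaled reads, and its Positive libraries 84.9, 112 and 57.6. All Positive values were higher than all Input values, though the Input values rest on 4 to 10 raw reads. The means were 6.57 ± 2.63 and 84.8 ± 27.1 (SD, n = 3), and log2 Positive over Input was 3.65 ± 0.37 (SE), again with no test for the same reason. Itgax begins 1387 bases after the end of the Itgam entry on the same strand, and Itgal ends 727502 bases before the start of Itgam.

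Values of leukocyte markers stood beside those of Itgal and Itgax. Of 14 lymphocyte markers 3 were in the table and the rest were not analysed here. Their summed level was 26.3 to 37.9 scaled reads in Input and 107 to 159 in Positive, with Cd79b, Cd4 and Lck at log2 fold changes of 3.97, 3.68 and -0.62. Cd79b and Cd4 passed the filter on low values through Positive alone and Lck through Input alone, so no test of them is given. Of 7 dendritic cell markers 4 were in the table. Of these Flt3 (-0.50) was lower, and Cd209a (4.24) passed the filter through Positive alone. To complete the list, Batf3 (0.86, edgeR adjusted p = 0.0159) was higher and Zbtb46 (-0.26) was not called. Summed levels over the list were 338 to 394 in Input and 354 to 402 in Positive. The call of Flt3 was lost without the Input library of animal 201 (edgeR adjusted p = 0.0679) or 208 (0.0719) and without the Positive library of animal 207 (0.0513). Of the monocyte and neutrophil lists 1 marker each was in the table, Ly6c2 (1.61), which passed the filter through Positive alone, and Cxcr2 (-1.41), which passed through Input alone. The part of these cells, or of border macrophages, in the levels of the beta 2 integrins was not tested.

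Itgb1 encodes beta 1, the chain shared by most receptors for matrix proteins (chromosome 8, 128685654 to 128733200, plus strand). It had 886, 821 and 931 scaled reads in Input and 2464, 3024 and 1973 in Positive. The fractions were separate, and the rise was smaller in animal 208 than in the other two. The means were 879.7 ± 55.4 and 2487 ± 526 (SD, n = 3), and log2 Positive over Input was 1.50 ± 0.13 (SE, 95% interval 1.22 to 1.78, edgeR adjusted p = 9.74e-07).

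Itga6 encodes alpha 6, a laminin receptor chain when joined to beta 1 or beta 4 (chromosome 2, 71745616 to 71858416, plus strand). Input held 267, 292 and 299 scaled reads and Positive 1549, 1956 and 1418. Each Positive library was several times as high as any Input library. The mean went from 286 ± 16.8 to 1641 ± 280.4 scaled reads (SD, n = 3), which on the log2 scale was a rise of 2.52 ± 0.12 (SE, 95% interval 2.25 to 2.79, edgeR adjusted p = 3.96e-09). Itgb4, whose product binds alpha 6 only, was lower in Positive, at 49.9% of its Input mean (edgeR adjusted p = 0.0104).

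Itga4 encodes alpha 4, which with beta 1 binds VCAM-1 and fibronectin and guides leukocytes through vessel walls (chromosome 2, 79255426 to 79333123, plus strand). It had 353, 323 and 369 scaled reads in Input and 339.9, 480.4 and 365 in Positive. The fractions overlapped, and Positive was higher in 1 of 3 animals, number 207. The log2 fold change of 0.18 ± 0.14 (SE) had a 95% interval of -0.12 to 0.49 and did not pass the test (edgeR adjusted p = 0.2995). Its end overlaps Cerkl on the opposite strand, and reads were counted by strand.

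Itgav encodes alpha V, the common chain of the receptors for vitronectin and for latent TGF-beta (chromosome 2, 83724397 to 83806916, plus strand). Input held 746, 715 and 639.6 scaled reads and Positive 903, 1031 and 771. The ranges did not overlap, but the gap was narrow, from 746 to 771. The log2 fold change was 0.37 ± 0.11 (SE, 95% interval 0.12 to 0.61, edgeR adjusted p = 0.0171), with means of 700.1 ± 54.7 and 901.7 ± 129.9 (SD, n = 3). The call was lost without the Input library of animal 208 (adjusted p = 0.0827 by edgeR), without the Positive library of animal 207 (0.086) and with limma (0.0553).

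Itgb5 encodes beta 5, which pairs with alpha V alone to bind vitronectin (chromosome 16, 33829665 to 33949153, plus strand). It had 948.5, 918 and 999.6 scaled reads in Input and 10338, 11653 and 7502.5 in Positive. The fractions lay far apart in every animal. The means were 955 ± 41.3 and 9831 ± 2121 (SD, n = 3), and log2 Positive over Input was 3.36 ± 0.14 (SE, 95% interval 3.06 to 3.67, edgeR adjusted p = 1.09e-09). The interval lay below those of Itgam and Itgb2.

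Itgb8 encodes beta 8, which with alpha V frees active TGF-beta from its latent form (chromosome 12, 119158022 to 119238802, minus strand). Its Input libraries held 632, 652 and 669 scaled reads and its Positive libraries 567, 570.1 and 579.5. Positive was lower in all 3 animals and the ranges did not overlap. The difference was small, 87.9% of the Input mean, with a log2 fold change of -0.19 ± 0.09 (SE, 95% interval -0.38 to 0.0035). It did not pass the test (edgeR adjusted p = 0.0996), except under total count scaling (log2 fold change -0.26, adjusted p = 0.0249). Itgav and its beta partners did not move as a set. Log2 fold changes were 0.37 for Itgav, 3.36 for Itgb5, 2.86 for Itgb3, 1.50 for Itgb1 and -0.19 for Itgb8.

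To compare genes with each other, scaled reads were divided by the exon length of the gene in kilobases. In Input the order of levels per kb was Itgb5 (269 ± 11.6, SD, n = 3), Itgb1 (216 ± 13.6), Itgav (65.2 ± 5.09), Itgb8 (58.9 ± 1.66), Itgam (45.6 ± 2.58), Itga6 (31.7 ± 1.86), Itgb2 (30.4 ± 3.68), Itga4 (24.9 ± 1.65), Itgal (1.53 ± 0.0862) and Itgax (1.37 ± 0.55). The ranges of 4 neighbouring pairs overlapped, Itgav with Itgb8, Itga6 with Itgb2, Itgb2 with Itga4 and Itgal with Itgax. In Positive the order per kb was Itgb5 (2767 ± 597), Itgam (1202 ± 265), Itgb2 (784 ± 162), Itgb1 (609 ± 129), Itga6 (182 ± 31.1), Itgav (83.9 ± 12.1), Itgb8 (51.7 ± 0.59), Itga4 (28.3 ± 5.36), Itgax (17.7 ± 5.64) and Itgal (6.53 ± 0.37). Here the ranges of 1 neighbouring pair overlapped, Itgb2 with Itgb1. Itgam and Itgb2 moved up to the second and the third place, and Itgav and Itgb8 moved down. The length used for the Itgam entry is that of both overlapping models (6377 bases). Since it is not known which model was counted, lengths of 5024 bases (Itgam alone) and 4803 bases (Gm49368 alone) were also tried after the data were seen. They put Itgam at 57.9 ± 3.28 and 60.6 ± 3.43 per kb in Input, where its range then overlapped those of Itgb8 and Itgav, and at 1526 ± 336 and 1596 ± 352 in Positive, where it stayed second.

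The subunits act in pairs, so the ratio of alpha to beta per kb was followed from Input to Positive within each animal, as a description with no test. The log2 ratio of Itgam to Itgb2 changed by 0.03 ± 0.07 (SD, n = 3 animals), from a ratio of 1.49 in Input to 1.53 in Positive. The ratio depends on the length taken for Itgam, and was 1.90 and 1.95 with Itgam alone and 1.99 and 2.04 with Gm49368 alone. The change in this ratio was smaller than its spread between animals, although both chains of complement receptor 3 rose. Against Itgb2, the log2 ratio changed by -2.67 ± 0.44 for Itgal and -1.15 ± 0.51 for Itgax. Against Itgb1, it changed by 1.03 ± 0.15 for Itga6, -1.31 ± 0.22 for Itga4 and -1.12 ± 0.28 for Itgav. The log2 ratio of Itgav to Itgb5 changed by -2.98 ± 0.30, from 4.13-fold more Itgb5 per kb in Input to 32.6-fold more in Positive. The sizes of these ratios also depend on length. With the longest transcript in place of all exons, Itgb5 and Itgav had 291 and 99.3 scaled reads per kb in Input. In Positive they had 2995 and 128. The ratio of Itgav to Itgb8 changed by 0.54 ± 0.16. With a pseudocount of 10 scaled reads the changes against Itgb2 were 0.12 for Itgam, -3.13 for Itgal and -2.05 for Itgax.

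The same levels per kb were expressed as shares of each partner set. Itgam made up 94.0% ± 1.23 (SD, n = 3) of the 3 alpha partners of Itgb2 in the table in Input and 98.0% ± 0.0943 in Positive, with Itgal at 3.15% and 0.552% and Itgax at 2.86% and 1.42%. Among the beta partners of Itgav in the table, Itgb5 went from 48.7% ± 0.22 to 79.1% ± 1.04. Itgb1 went from 39.0% to 17.5% of that set, Itgb8 from 10.7% to 1.53% and Itgb3 from 1.70% to 1.96%. Among 11 alpha partners of Itgb1, Itga6 was 9.38% ± 0.79 in Input and 33.6% ± 2.10 in Positive, where it was the most abundant. The laminin receptor chains Itga3 (19.9% to 11.4%) and Itga7 (17.5% to 9.90%) and Itgav (19.3% to 15.5%) held larger shares than Itga6 in Input and smaller ones in Positive. These shares use the length of all exons only. With the longest transcript the level of Itga6 was 66.3 per kb in Input and 381 in Positive, against 31.7 and 182. A share in RNA is not a share of assembled receptors, since alpha V and beta 1 have several partners each.

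**Figure D2:**
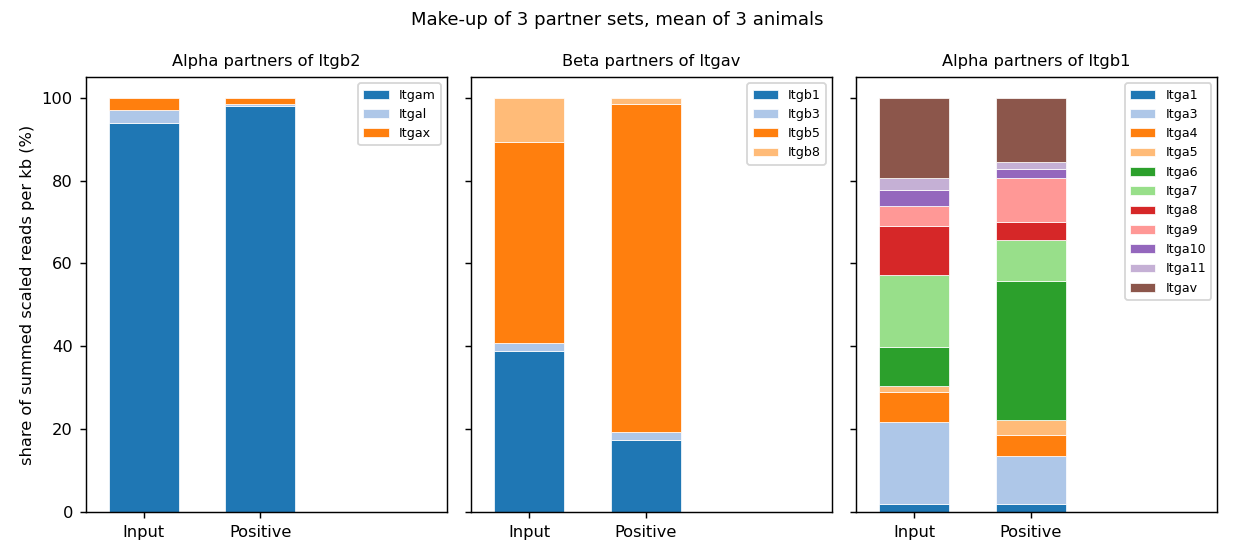
Shares (%) of summed scaled reads per kb within the alpha partners of Itgb2, the beta partners of Itgav and the alpha partners of Itgb1, as the mean of 3 animals in Input and in Positive. Itgb5 widens from 48.7% to 79.1% of the middle set and Itga6 from 9.38% to 33.6% of the right set, while Itgam fills the left set in both fractions.

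The fold changes within each animal are given beside those of marker lists. The log2 ratio of Positive to Input was 4.59, 5.13 and 4.37 for Itgam and 4.55, 5.16 and 4.27 for Itgb2 in animals 201, 207 and 208, beside medians of 4.55, 4.79 and 4.36 for the microglia markers and 3.74, 4.45 and 3.80 for the border macrophage markers. Animal 207 was thus highest and animal 208 lowest for the receptor chains and for the microglia list. The border macrophage medians include 4 markers that passed the filter through Positive alone. The ratio was 1.47, 1.88 and 1.08 for Itgb1, 2.53, 2.74 and 2.24 for Itga6 and 3.45, 3.67 and 2.91 for Itgb5, beside 2.20, 2.08 and 1.12 for the endothelial markers. Animal 208 was the lowest of the 3 for each of these. The values of Itgal (1.91, 2.04 and 2.02), Itgax (3.59, 3.44 and 3.50) and Itgb8 (-0.16, -0.19 and -0.21) varied little between animals, though those of Itgal and Itgax rest on few Input reads. The part of endothelial or border macrophage RNA in the rise of Itgb1, Itga6 and Itgb5 was not tested.

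**Figure D3:**
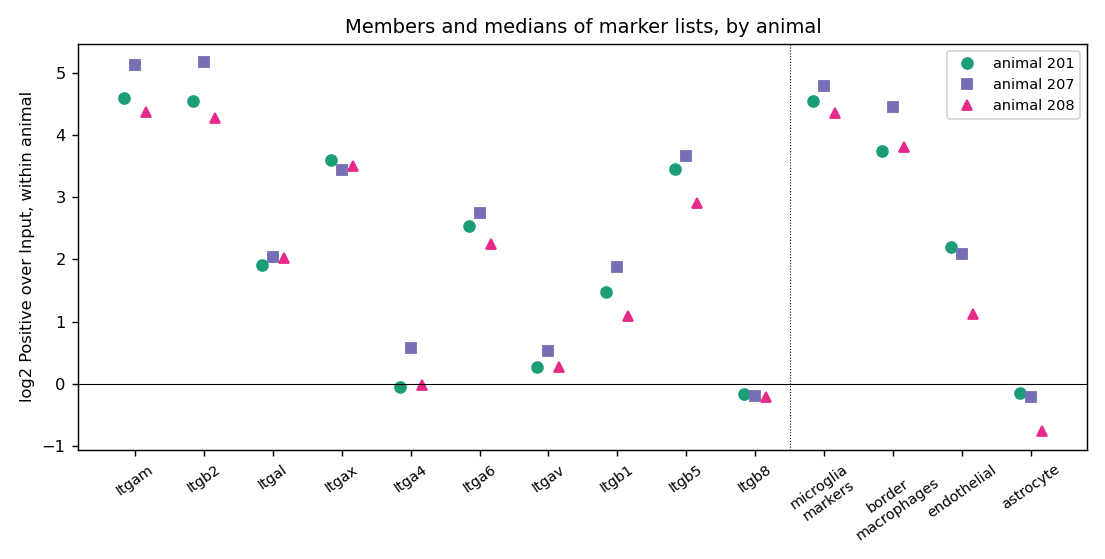
Log2 of Positive over Input within animals 201, 207 and 208 for each of the 10 integrin genes and, right of the dotted line, the median of 4 marker lists. Itgam and Itgb2 lie at 4.27 to 5.16, near the microglia markers (4.36 to 4.79), Itgb8 lies just under 0 in all 3 animals, and Itga4 is above 0 in 1 animal.

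Of the 18 other subunits and relatives of the family 13 were tested, with a median log2 fold change of -0.13. Of these, 11 passed the filter in both fractions. Among the 11, Itgb3, Itga9 and Itga1 were higher in Positive and Itgb4, Itga8 and Itgbl1 lower, where 24% and 22% of all genes were higher and lower. The other 2 genes passed the filter on low values through Positive alone and are given with no test. Itgae, the alpha chain that pairs with beta 7, had 2.04 to 5.64 scaled reads in Input and 26.1 to 41.9 in Positive. Itga5, the fibronectin receptor chain, had 15.03 to 32.8 scaled reads in Input and 62.3 to 115 in Positive. The higher genes among the 11 were Itgb3 (2.86 ± 0.21 SE), a further partner of alpha V, Itga9 (1.80 ± 0.19), which binds tenascin, and Itga1 (0.84 ± 0.25), a collagen receptor chain. Their edgeR adjusted p-values were 2e-07, 6.26e-06 and 0.0161. Itga1 was 126, 106 and 112 in Input and 278, 222 and 117 in Positive, so that animal 208 showed almost no rise, and its call was lost without the Input library of animal 207 (adjusted p = 0.0605 by edgeR), without the Positive library of animal 201 (0.0806) and with limma (0.0696). The lower genes were Itgb4, with 168 ± 15.8 (SD, n = 3) Input and 83.9 ± 38.5 Positive scaled reads, Itga8 (-0.75 ± 0.13), a partner of beta 1, and Itgbl1 (-1.03 ± 0.22), a relative that is not a receptor chain. Not called were Itga2b, the platelet chain (-0.13), Itga3 (-0.14), Itga7 (-0.15), Itga10 (-0.08) and Itga11 (-0.27).

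**Figure D4:**
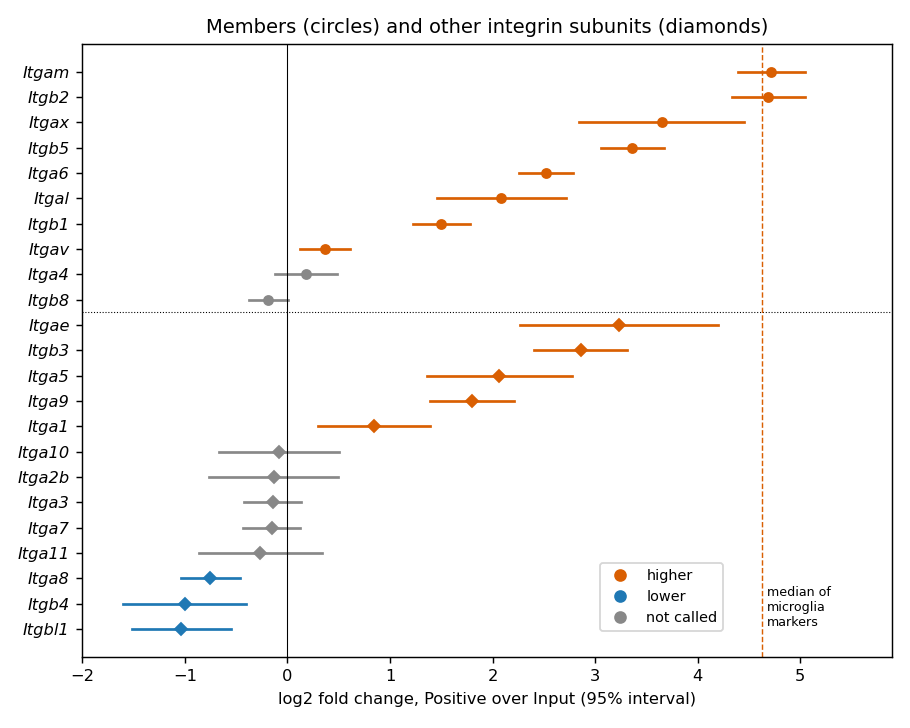
Log2 fold change of Positive over Input with its 95% interval for the 10 integrin genes (circles) and 13 other subunits and relatives (diamonds), coloured by the edgeR call, with a dashed line at the median of the microglia markers. Itgam and Itgb2 (4.72 and 4.69) lie on that line, Itgb5, Itgax and Itgae lie between 3.24 and 3.65, and Itga4 and Itgb8 lie at 0.18 and -0.19. Itgal, Itgax, Itgae and Itga5 passed the filter on low values through Positive alone, so their colour is not a test result.

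Of 42 genes for ligands of these receptors 37 were tested, and 9 were higher and 8 lower (24.3% and 21.6%), shares close to those of all genes (24% and 22%), with a median log2 fold change of -0.02. Of the 37, 35 passed the filter in both fractions. Icam2, which the 9 include, and C3, which was not called, passed through Positive alone, so the call of Icam2 is no support. Without the Input library of animal 207 the counts were 8 higher and 5 lower, and without the Positive library of animal 208 they were 13 higher and 6 lower. Among the most abundant higher genes were F11r (3.60), which encodes the junction protein JAM-A that alpha L with beta 2 can bind, Fn1 (1.17) for fibronectin, Npnt (1.02) for nephronectin and Lamb2 (0.48) for a laminin chain. Icam1 (2.77) and Icam2 (2.43), ligands of Itgal and Itgam products, were also higher and are named here after their values were seen, Icam2 having passed the filter on low values through Positive alone. Lower ligands included Col1a2 (-1.16), a collagen chain, Jam3 (-1.07), a ligand of alpha M, Mfge8 (-0.54), a bridge between dying cells and alpha V, and Lamb1 (-0.52). The call of Lamb2 was lost without the Input library of animal 208 (edgeR adjusted p = 0.0852), without the Positive library of animal 201 (0.0783) or 207 (0.0909) and with limma (0.0893). Thy1 (-0.09) and the neuronal Icam5 (-0.10) had the most reads among ligands that did not pass the test.

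Latent TGF-beta is the ligand of alpha V with beta 8. Of 9 genes for its forms, binding proteins and anchors 8 were tested, and 3 were higher and 3 lower (37.5% each, against 24% and 22% of all genes), with a median log2 fold change of 0.37. Tgfb1 had 83.6, 73.3 and 56.6 scaled reads in Input and 833, 1131 and 779.6 in Positive, a log2 fold change of 3.68 ± 0.18 (SE, edgeR adjusted p = 3.82e-09). Nrros, which anchors latent TGF-beta 1 on microglia, rose by 1.71 ± 0.21 and Ltbp4, a latent TGF-beta binding protein, by 0.90 ± 0.14 on the log2 scale. Tgfb3 (-0.90), Ltbp1 (-0.69) and Ltbp3 (-0.51) were lower. Tgfb2 (-0.11) and Lrrc32 (0.85) did not pass, and Lrrc32, an anchor related to Nrros, passed in the fit with animal as a block (0.82, edgeR adjusted p = 0.015) and without the Positive library of animal 208 (0.0293). The call of Ltbp1 was lost without the Input library of animal 207 (0.068 by edgeR) or 208 (0.0524).

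The adaptors are proteins inside the cell that link integrins to the actin skeleton or carry their signals. Of 43 adaptors 42 were tested, and 25 were higher and 3 lower (59.5% and 7.14%, against the same 24% and 22%), with a median log2 fold change of 0.60. The lower count was 1 without the Input library of animal 201 or the Positive library of animal 207, and 4 without the Positive library of animal 201. Tln1, the talin that switches integrins on, had 984, 1011 and 889.7 scaled reads in Input and 5215, 5766 and 4053 in Positive, and rose by 2.38 ± 0.12 (SE, edgeR adjusted p = 5.34e-09). Its relative Tln2 (0.62), Actn4 (0.79) for an actinin and Ptk2b (0.35) for the kinase Pyk2 rose less. Tgfb1i1 (-0.82) and Cyth1 (-0.31) were among the lower genes, and the kinase Ptk2 (-0.06) and Bcar1 (-0.04) did not pass. The call of Tgfb1i1 was lost without the Input library of animal 201 (edgeR adjusted p = 0.101) and without the Positive library of animal 207 (0.0506). The adaptors with the largest log2 fold changes were Fyb (4.62), Fermt3 (4.28), the kindlin of blood cells, Apbb1ip (3.88), Dok1 (2.99) and Parvg (2.98), which are named after their values were seen. Fermt3 had 81.6, 97.4 and 69.8 scaled reads in Input and 1664, 1940.0 and 1258 in Positive, while the other kindlins Fermt2 (-0.27) and Fermt1 (-0.14) did not pass the test. Fermt2 passed under total count scaling (-0.34, edgeR adjusted p = 0.0197), with animal as a block (0.0269) and without the Positive library of animal 201 (0.0128). Fermt1 was at 0.33 without the Input library of animal 201 and at 0.22 without the Positive library of animal 207.

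**Figure D5:**
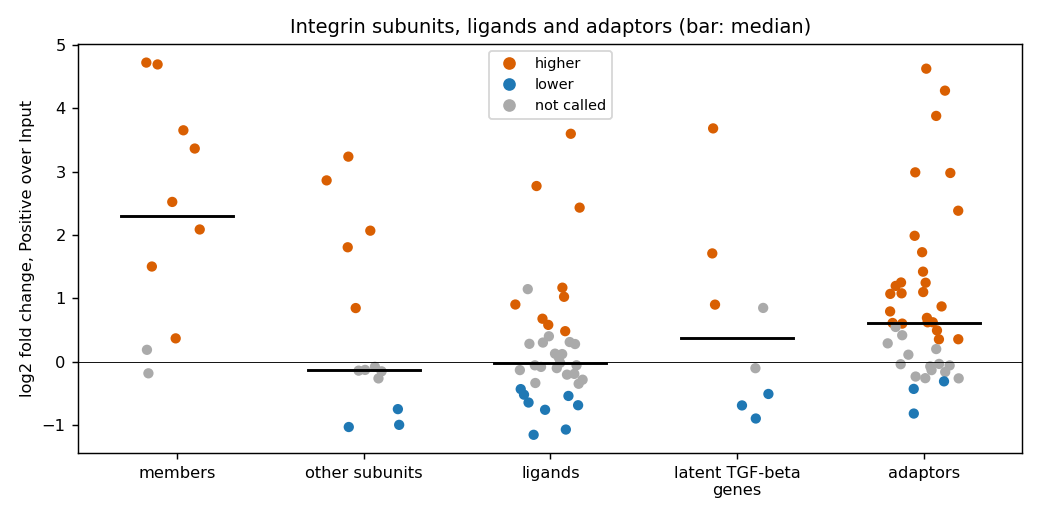
Log2 fold change of Positive over Input for each tested gene of 5 lists (10 integrin genes, 13 other subunits and relatives, 37 ligands, 8 latent TGF-beta genes and 42 adaptors), coloured by the edgeR call, with a bar at the median. The medians are 2.30, -0.13, -0.02, 0.37 and 0.60, and called genes of both directions stand in every list but the first. In each of the first 3 lists 2 genes passed the filter on low values through Positive alone, and the colours and medians include them. Without them the median of the first list is 2.01.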

How the data were processed

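RNA of 3 Input and 3 Positive libraries was measured by directional poly(A) sequencing. The authors aligned reads to mm10 in Strand NGS by strand, and the deposited table holds expected counts (estimated counts, 17.3% to 23.1% of them whole) for genes that had 20 or more raw reads in all libraries of Input, of Positive or of both. The deposited normalized columns are log2 values after DESeq scaling by the authors and were used only with limma. Members and lists were chosen with earlier results of these data known.

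Expected counts were rounded and tested in R 4.3.3 with edgeR 4.0.16 (quasi-likelihood, RLE scaling, Benjamini-Hochberg adjusted p under 0.05), without pairing. Genes with over 20 scaled reads in all libraries of a fraction were kept, which removed 44 of 15388 and left 15344. The method was tested on simulated data, which held far fewer changed genes than were called here and no pairing by animal. Alternatives (13 per gene) used DESeq2 1.42.0, limma 3.58.1, other scaling and filters, an animal block and each library left out. Labels give the animal of each library, and deviations from the fraction mean correlated at 0.194, 0.0579 and 0.12 between same-animal libraries. Between libraries of different animals they correlated at -0.14 to 0.0318. Ratios between fractions and between partners were taken after adding a pseudocount of 1 scaled read. Lengths came from GENCODE vM21, with which 15370 of the table's identifiers matched. Named genes are all family genes tested, the 4 most abundant called higher and lower and the 2 most abundant not called of each pathway list, and marker extremes. Not every gene so chosen is reported here. Unmapped columns numbered 0. Whether both mates of a read pair were counted is not given in the sources used here.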

Additional observations from a re-analysis of the deposited data

How the results depend on the processing

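Under the alternatives, 124 of 128 values of the 10 integrin genes kept their direction and their side of the threshold and 0 reversed. These values include those of Itgal and Itgax, whose direction the filter fixed, so for these genes they are no support. Itgav was no longer called with limma (log2 fold change 0.34), without the Input library of animal 208 (0.31) or without the Positive library of animal 207 (0.26), and Itgb8 became lower under total count scaling (-0.26). With a library left out 7 to 8 of the 10 integrin genes were called, a count that includes Itgal and Itgax, for which no test is given. Over all genes, 7054 were called (3684 higher, 3370 lower), against 7329 (3048 higher, 4281 lower) under total count scaling, 5541 to 7259 with a library left out, 6682 with DESeq2 and 6674 with limma. The animal as a replicate block, which the pairing by animal in the labels allows, gave 7567, of which 7025 were also called without it, and changed the call of no integrin gene. Of the other genes named by the rule it changed that of Lrrc32 only, and of those named after their values were seen that of Fermt2, and it called 20 ligands and 29 adaptors in place of 17 and 28. With a pseudocount of 10 the change of the partner ratio was 0.12 for Itgam, -3.13 for Itgal and -2.05 for Itgax over Itgb2. The Input means of Itgal and Itgax, 10.03 and 6.57 scaled reads, were close to or under the added 10, and the cause of the shift was not tested. Among 62 other named genes 34 values lost and 4 gained the threshold and 5 reversed, all 5 with a library left out and in genes that were not called, within ranges of -0.39 to 0.025 for Itga2b, -0.23 to 0.17 for Itga10, -0.091 to 0.051 for Bcar1 and -0.19 to 0.057 for Tnr. Using the longest transcript in place of all exons, an alternative chosen after the data were seen like the lengths of 1 model alone for Itgam, moved 14 of 20 levels per kb. It left the order in Positive as it was and in Input put Itga6 above Itgam and Itga4 above Itgb2. Itgal and Itgax have no value under a filter at 100 scaled reads, and depth limits both, since their Input values rest on 4 to 10 raw reads.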
